A study of Setaria italica with 18 samples.

Results

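SiDREB77, SiDREB93 and SiDREB130 are 3 genes for DREB transcription factors of foxtail millet (Setaria italica) that already had a higher level in unstressed leaves of variety JK3 than in those of variety B175. They were picked because their level was higher in JK3 than in B175 at 0 h and because they rose more in B175 up to 12 h of stress. Of the SiDREBs that the study named, 128 are listed in the deposited expression table and 102 were expressed enough to be tested, the 3 genes among them. The table holds 29108 genes in all.

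The samples were seedling leaves. B175 is sensitive to salt and JK3 is tolerant of it, and both were sampled after 0, 12 and 24 h in diluted artificial seawater, a saline-alkali stress. The 6 groups are called B0, B12, B24, J0, J12 and J24 after variety and hours, with 3 libraries each and 18 in all. By the study's methods the libraries of a group are biological replicates, and how many plants each held is not given in the sources used here. Plants at 0 h were unstressed. No transgene or mutation was involved, and the 2 varieties differ in their whole genetic background. Untreated leaves at 12 and 24 h were not analysed here. Stress thus cannot be told apart from the time of day at 12 h, nor from a day of further growth at 24 h. Levels are FPKM, that is, a gene's fragments relative to its length and to the fragments in the library.

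DREB proteins carry an AP2/ERF DNA-binding domain and bind the dehydration-responsive element in the promoters of stress-response genes, such as those for dehydrins and other late embryogenesis abundant (LEA) proteins. In Arabidopsis, DREB1/CBF factors are best known from cold, and DREB2 factors from drought and salt. The table annotates SiDREB77 and SiDREB130 as ERF008 and SiDREB93 as TINY. Arabidopsis ERF008 belongs to a small group of DREB proteins with an EAR repression motif, and Arabidopsis TINY was named after the dwarf growth of plants in which it is overactive.

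SiDREB77 (Seita.4G060700.v2.2) lies on chromosome 4, SiDREB93 (Seita.5G141600.v2.2) on chromosome 5 and SiDREB130 (Seita.7G262800.v2.2) on chromosome 7, as their identifiers state. ERF008 is the annotation of 2 genes in the table, SiDREB77 and SiDREB130, and whether reads were divided between them was not tested. The libraries held 34738627 to 38798886 fragments on genes, counted from the steps between FPKM values. SiDREB77 had 44 to 1107 fragments per library, SiDREB130 had 797 to 2797, and SiDREB93 had 2 to 699. SiDREB93 in B0 is therefore the least precise of the levels, with 53 fragments over the 3 libraries. Such counts show counting error only.

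The RNA came from whole leaves, where fewer cells of a type and less RNA per cell cannot be told apart. Leaf markers (RuBisCO small chain, chlorophyll-binding proteins and C4 enzymes, 33 listed genes, none at 0 in all libraries) had a summed FPKM of 47540 to 57930 in B0, 30450 to 33310 in J0, 7983 to 11290 in B12, 5135 to 5736 in J12, 20560 to 43040 in B24 and 19010 to 25390 in J24. Root markers (12 listed genes, none at 0 in all libraries) summed to 3.36 to 108.3 FPKM. The markers thus match the labelled tissue, and the leaf sum was lower in every J0 library than in any B0 library. B24 replicate 2 stood apart from its group, with a leaf marker sum of 43040 against 20560 and 23220, and correlated least with the other libraries of its group (mean r = 0.94 across genes). The part of these shifts in the results below was not tested.

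SiDREB77 was higher in JK3 at all 3 time points. In B0 its FPKM was 2.10, 2.01 and 2.95 in replicates 1, 2 and 3. The J0 replicates had 15.3, 45.2 and 20.4 FPKM. All J0 libraries were above all B0 libraries, and J0 replicate 2 was far above the other J0 libraries. At 12 h it reached 12.1, 20.99 and 21.3 FPKM in B12 and 49.6, 35.2 and 43.1 FPKM in J12. At 24 h its level was 8.48, 6.11 and 7.11 FPKM in B24 and 26.3, 24.7 and 25.6 FPKM in J24. At each of the 3 time points, every JK3 library was above every B175 library, as for 22.6%, 15.8% and 10.6% of all genes at 0, 12 and 24 h.

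SiDREB93 was close to absent in unstressed B175. Its FPKM in B0 was 0.295, 1.63 and 0.0728, or 8, 43 and 2 fragments. J0 had 2.84, 8.69 and 8.60 FPKM, all above B0 as for 22.6% of all genes, with replicate 1 the lowest. Both varieties then rose. B12 had 19.4, 14.3 and 25.2 FPKM, all above the 12.3, 9.39 and 10.8 FPKM of J12. B24 had 27.1, 15.01 and 18.7 FPKM, within reach of the 19.2, 24.5 and 23.0 FPKM of J24. The order of the varieties at 0 h was thus turned around at 12 h, and the groups overlapped at 24 h.

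SiDREB130 was the most abundant of the 3 genes in every group. B0 had 44.6, 29.2 and 33.7 FPKM, and J0 had 48.4, 99.3 and 59.0 FPKM. The groups did not overlap, as for 22.6% of all genes with J0 above B0, but the highest B0 library and the lowest J0 library lay close together. In B12 the level was 76.5, 76.8 and 95.3 FPKM, and in J12 it was 57.2, 60.5 and 46.3 FPKM. All B12 libraries were above all J12 libraries, which held for SiDREB93 too and for 17.9% of all genes. At 24 h the level was 80.6, 51.3 and 56.5 FPKM in B24 and 68.0, 80.8 and 82.1 FPKM in J24, and the groups overlapped.

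**Figure D1:**
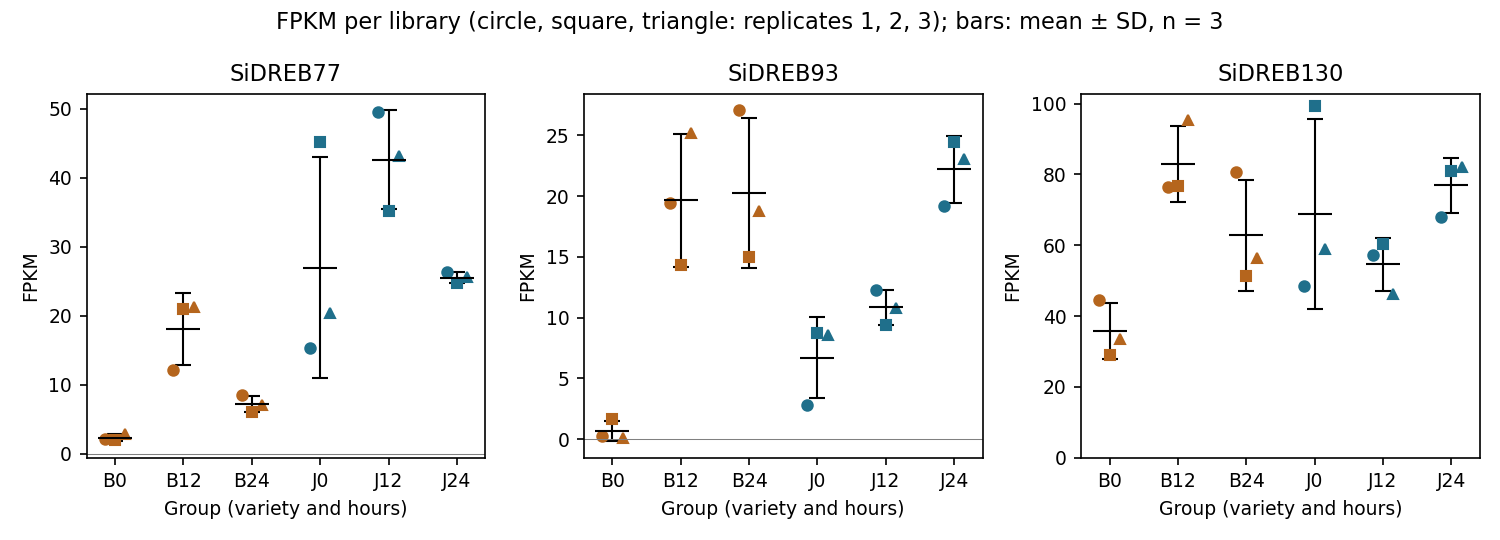
FPKM of SiDREB77, SiDREB93 and SiDREB130 (y axes) in the 6 groups (x axes). Points are libraries, brown for B175 and blue for JK3, and bars are the mean ± SD of 3 libraries. B0 has the lowest mean of all groups for each gene, and J0 replicate 2 is the highest J0 library of each.

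The plot of FPKM by library shows 3 different courses. For SiDREB77 the mean levels were ordered B0 (2.35 ± 0.518 FPKM), B24 (7.23 ± 1.19), B12 (18.1 ± 5.19), J24 (25.5 ± 0.772), J0 (27.0 ± 16.01) and J12 (42.6 ± 7.17), each with SD and n = 3. Neighbours in this order did not overlap up to J24, while J24 and J0, and J0 and J12, did. For such pairs of groups from different time points the share of all genes is not given here. For SiDREB93 the order was B0 (0.665 ± 0.840 FPKM), J0 (6.71 ± 3.35), J12 (10.8 ± 1.45), B12 (19.7 ± 5.46), B24 (20.3 ± 6.18) and J24 (22.2 ± 2.76), and the 3 highest groups overlapped. For SiDREB130 it was B0 (35.8 ± 7.94 FPKM), J12 (54.6 ± 7.45), B24 (62.8 ± 15.6), J0 (68.9 ± 26.8), J24 (77.0 ± 7.79) and B12 (82.9 ± 10.8). Apart from B0, all neighbours in the order of SiDREB130 overlapped.

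The libraries of a group spread unequally. The coefficient of variation of SiDREB77 was 59.3% in J0 and 3.02% in J24, and that of SiDREB130 was 38.9% in J0 and 10.1% in J24. SiDREB93 varied most in B0, at 126.0%, where its counts were lowest. Among the 128 listed SiDREBs, ordered by mean FPKM from the highest, SiDREB77 moved from place 57 in B0 to place 23 in J0. SiDREB93 went from place 76 in B0 to place 43 in J0 and place 26 in B24. SiDREB130 was at place 20 in B0, place 10 in J0 and place 11 in B12.

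The levels at 0 and 12 h chose the genes, so their differences are given as a description without a test. All differences are in log2(FPKM + 1), which understates the change of low genes, with the standard error of a limma fit over the 23824 genes whose FPKM averaged 0.1 or more. In J0 vs B0, SiDREB77 differed by 2.93 (SE 0.300), SiDREB93 by 2.204 (SE 0.365) and SiDREB130 by 0.88 (SE 0.237). The ratios of the mean FPKM were 11.5, 10.1 and 1.92. Calls needed an adjusted p under 0.05 and a log2 fold change beyond 1 in either direction. SiDREB77 and SiDREB93 exceeded the fold limit and SiDREB130 did not, read without the p limit. Of all genes, 6.78% were called higher in J0, by both limits. Without J0 replicate 2 the differences were 2.49, 1.98 and 0.59. SiDREB130 lay past the limit without J0 replicate 1 (1.10) or without B0 replicate 1 (1.05). SiDREB93 lay above SiDREB77 with a pseudocount of 0.1 (3.63 against 3.33) and in voom on the recovered fragments (4.08 against 3.37).

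**Figure D2:**
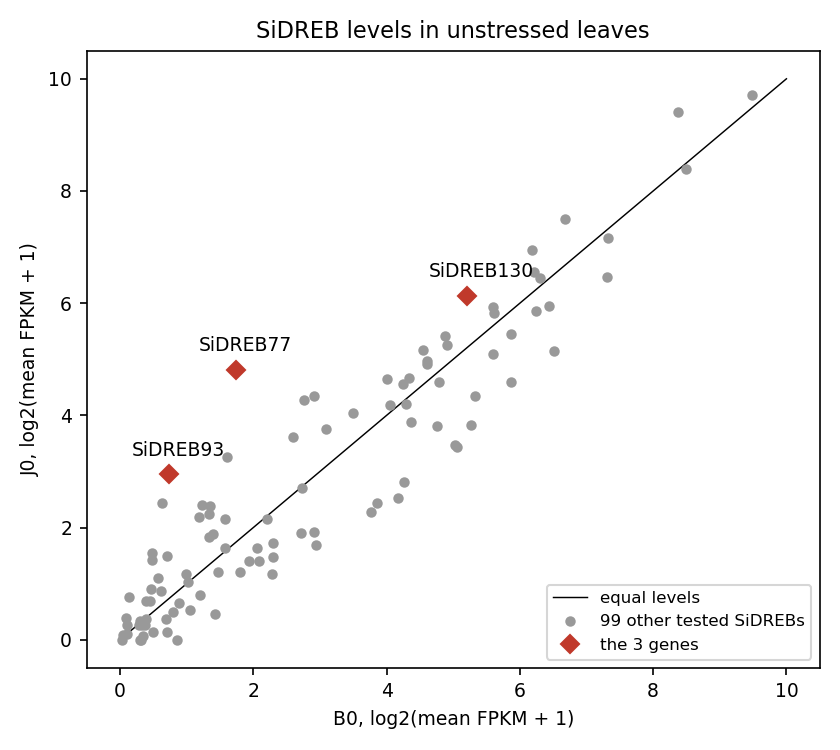
Mean level of the 102 tested SiDREBs in unstressed leaves, as log2(mean FPKM + 1), in B0 (x axis) and J0 (y axis). The line marks equal levels. The 3 genes (red) lie above the line and were chosen for it. The other 99 SiDREBs (grey) lie on both sides of it.

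From 0 to 12 h, SiDREB77 differed by 2.48 in B12 vs B0 and by 0.77 in J12 vs J0. SiDREB93 differed by 3.71 and 0.73, and SiDREB130 by 1.20 and -0.27. The mean FPKM in B12 was 7.71, 29.6 and 2.31 times that in B0 for SiDREB77, SiDREB93 and SiDREB130. All 3 genes exceeded the fold limit in B12 vs B0, a rise for which they were chosen, and none did in J12 vs J0. Of all genes, 28.0% were called higher in B12 vs B0 and 31.6% in either direction in J12 vs J0. Those calls also needed the adjusted p, so the shares and the 3 genes were held to unlike limits. The change in JK3 minus that in B175 was -1.71 (SE 0.424) for SiDREB77, -2.98 (SE 0.516) for SiDREB93 and -1.47 (SE 0.336) for SiDREB130. These values in JK3 depended on single libraries. Without J0 replicate 2, J12 vs J0 was 1.21 for SiDREB77 and 0.02 for SiDREB130. Without J0 replicate 1 it was 0.46 for SiDREB77, 0.29 for SiDREB93 and -0.49 for SiDREB130.

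The scaling between libraries mattered at 12 h. The median over all tested genes was 0.43 in B12 vs B0 and 0.37 in J12 vs J0, and was 0.01 in both after the libraries were scaled to their median ratio. After that scaling, B12 vs B0 was 1.93 for SiDREB77 and 0.56 for SiDREB130, and J12 vs J0 was 0.22 for SiDREB77, 0.22 for SiDREB93 and -0.83 for SiDREB130. With quantile normalization B12 vs B0 was 1.91 for SiDREB77 and 0.83 for SiDREB130. SiDREB93 was at 3.25 after median-ratio scaling and 3.26 after quantile normalization. All 3 genes lay above the median of all genes in B12 vs B0 before and after median-ratio scaling, and SiDREB130 was under the fold limit with both alternatives.

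At 12 h itself the 3 genes parted. In J12 vs B12, SiDREB77 was higher in JK3 by 1.22, whereas SiDREB93 differed by -0.78 and SiDREB130 by -0.59. Of all genes, 3.97% were called higher and 2.38% lower in J12. SiDREB77 alone exceeded the fold limit, read without the p limit that the calls also needed.

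By adjusted p values, the same rule is J0 above B0 and a change up to 12 h lower in JK3 than in B175. The 713 genes that met it were 2.99% of the genes tested. The 3 genes were 2.94% of the tested SiDREBs, close to that share. This is a count from the values that chose them, and whether the family differs from the whole table was not tested. The SiDREBs just outside it with the largest variety difference were SiDREB116 (annotated ABR1) and SiDREB60 (annotated ERF061). SiDREB116 had 1.28 ± 0.574 FPKM in B0, 3.56 ± 1.95 in J0 and 18.5 ± 6.62 in B12 (SD, n = 3), with a change in JK3 minus B175 of -1.61 (SE 0.569). SiDREB60 had 5.77 ± 2.28 FPKM in B0, 18.4 ± 11.4 in J0 and 17.3 ± 7.02 in B12, with a change of -1.41 (SE 0.569). Their changes were close to that of SiDREB130, which was inside with -1.47, and their standard errors were larger. The next were SiDREB163 (-1.27), SiDREB132 (-1.11) and SiDREB137 (-0.97).

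The comparison J24 vs B24 asks whether the varieties still differed after a day of stress. It set only libraries outside the rule against each other and was tested. Its standard error drew on all 18 libraries, those of the rule included. SiDREB77 was 1.70 higher in J24 (SE 0.300, 95% interval 1.06 to 2.33), with a mean FPKM 3.53 times that of B24 and an adjusted p of 0.002 in limma (Benjamini-Hochberg adjustment over every gene tested). It was higher in 3 of 3 J24 libraries than in any B24 library. With the 24 h libraries alone in the fit, SiDREB77 differed by 1.70 with an adjusted p of 0.00725 in limma. SiDREB93 differed by 0.16 (95% interval -0.62 to 0.93, adjusted p = 0.85 in limma) and SiDREB130 by 0.31 (95% interval -0.19 to 0.82, adjusted p = 0.475 in limma). Both intervals include 0, and neither reaches above 0.93.

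One of the 3 genes was thus called higher in J24, where 2.28% of all genes were called higher and 4.55% in either direction. Of the 713 genes that met the rule, 34 (4.77%) were called higher in J24. A two-sided exact permutation test of 3 libraries against 3 gave p = 0.1 for SiDREB77, 0.6 for SiDREB93 and 0.2 for SiDREB130, and 0.1 is the smallest p this design allows. Without B24 replicate 2, the library that stood apart, SiDREB77 differed by 1.60 with an adjusted p of 0.0101 in limma, and SiDREB93 by -0.03.

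**Figure D3:**
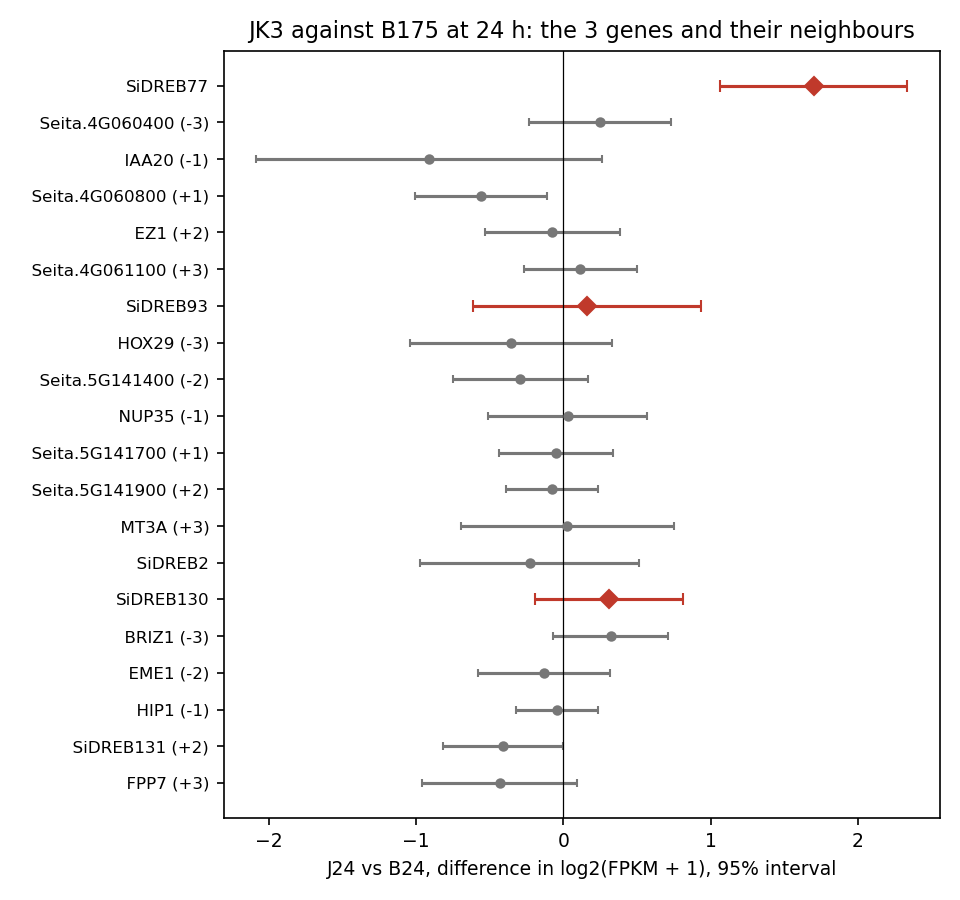
Difference between JK3 and B175 at 24 h in log2(FPKM + 1) with its 95% interval (x axis) for the 3 genes (red), for the tested genes next to each of them in identifier order (grey, with their offset), and for SiDREB2. SiDREB77 lies at 1.70 with an interval of 1.06 to 2.33, while its neighbours and the neighbours of the other genes lie between -0.91 and 0.32.

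The changes up to 24 h within each variety are given without a test, because the 0 and 12 h libraries chose the genes. In B24 vs B0, SiDREB77 differed by 1.30, SiDREB93 by 3.75 and SiDREB130 by 0.79, and 10.2% of all genes were called higher. In J24 vs J0 the differences were 0.07, 1.70 and 0.22, and 5.36% were called higher. Without J0 replicate 2, J24 vs J0 was 0.51 for SiDREB77 and 0.51 for SiDREB130, and without J0 replicate 1 it was -0.25 and 0.0027, and the direction for SiDREB77 was turned without J0 replicate 1 or J0 replicate 3. SiDREB93 was the gene of the 3 that exceeded the fold limit, read without the p limit, in both varieties. From 12 to 24 h, SiDREB77 differed by -1.19 in B175 and -0.70 in JK3, SiDREB93 by 0.04 and 0.97, and SiDREB130 by -0.41 and 0.49. Median-ratio scaling moved the values of SiDREB77 to -0.75 and -0.21, and those of SiDREB130 to 0.05 and 0.99, so that the direction of SiDREB130 in B175 depended on the scaling. SiDREB93 moved to 0.48 in B175 and to 1.44, past the fold limit, in JK3. The median of all genes was -0.31 in B24 vs B12 and -0.34 in J24 vs J12 before scaling.

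The genes next to each of the 3 were looked at for the same difference, 3 on each side by identifier. Of these 18 neighbours 16 were tested, and limma called 0 of them in J24 vs B24, with 2 at an unadjusted p under 0.05 and 0 called by voom on the recovered fragments. Next to SiDREB77, the Aux/IAA gene IAA20 (-0.91, SE 0.552) and EZ1, annotated as a histone methyltransferase (-0.08, SE 0.216), did not share its difference. In J0 vs B0 1 neighbour was called. It is HOX29, a homeobox-leucine zipper factor 3 genes before SiDREB93, at 4.64 ± 2.74 FPKM in B0 and 19.2 ± 8.51 FPKM in J0 (SD, n = 3), a difference of 1.88 (SE 0.325, adjusted p = 0.000612 in limma). Between them lie Seita.5G141400 and NUP35, a nuclear pore gene, with J0 vs B0 differences of 0.10 (SE 0.216) and 0.11 (SE 0.254).

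SiDREB131, annotated APETALA2-like protein 5, lies 2 genes after SiDREB130. Its level was 26.5 ± 3.67 FPKM in B0 and 23.2 ± 6.89 FPKM in J0, and it differed by -0.41 in J24 vs B24 (adjusted p = 0.224 in limma). SiDREB2 is listed by the study as the segmental duplicate of SiDREB93. It was low in every group, from 0.219 ± 0.284 FPKM in B12 to 1.30 ± 0.731 FPKM in B0, and its highest level was thus in the group where SiDREB93 was lowest. In J24 vs B24 it differed by -0.23 (adjusted p = 0.758 in limma).

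Across the 18 libraries the 3 genes resembled each other only in part. Pearson's r of log2(FPKM + 1) was 0.60 for SiDREB77 and SiDREB93, 0.62 for SiDREB77 and SiDREB130, and 0.78 for SiDREB93 and SiDREB130. These values are descriptions, since the genes were chosen for a shared pattern and share libraries and depth. For deviations from the group means, r was 0.37, 0.67 and 0.41. The highest of these belongs to the 2 genes annotated ERF008. J0 replicate 2 was far above the other J0 libraries for both. SiDREB77 had 45.2 FPKM there against 15.3 and 20.4, and SiDREB130 had 99.3 against 48.4 and 59.0. How much of that r rests on this library was not tested.

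Other genes followed each of the 3 more closely. For SiDREB77 the 5 most alike of all tested genes were MINE1 (r = 0.947), a chloroplast division factor, Seita.3G087700 (0.947), the glutathione S-transferase GSTU6 (0.946), Seita.5G437500 (0.943), annotated with a CRAL-TRIO domain, and the ubiquitin gene PCUBI4-1 (0.943). GSTU6, for example, had 49.6 ± 4.38 FPKM in B0, 192.3 ± 75.7 in J0 and 300.1 ± 39.6 in J12 (SD, n = 3). For SiDREB93 they were Seita.8G030400 (0.971), the ubiquitin ligase AIRP2 (0.971), the protein phosphatase PP2C50 (0.964), Seita.7G073100 (0.962) and the mitochondrial ADP/ATP carrier ANT2 (0.961). In Arabidopsis AIRP2 acts in abscisic acid responses, and in rice PP2C50 is an abscisic acid co-receptor phosphatase. PP2C50 had 48.5 ± 2.62 FPKM in B0, 169.2 ± 46.4 in J0, 302.1 ± 95.6 in B12 and 227.6 ± 22.3 in J12, the same order of these groups as SiDREB93.

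SiDREB130 had the least close partners. They were Seita.5G104400 (0.91), Seita.1G241800 (0.903), the acyl-activating enzyme AAE5 (0.899), Seita.5G243500 (0.895) and Seita.5G262200 (0.889), of which AAE5 alone has a named enzyme as annotation. AAE5 had 19.3 ± 3.33 FPKM in B0, 49.5 ± 20.2 in J0, 67.3 ± 2.03 in B12 and 43.3 ± 9.05 in J12. Each r is over 18 libraries that share the group structure, and was the basis on which the genes were picked.

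**Figure D4:**
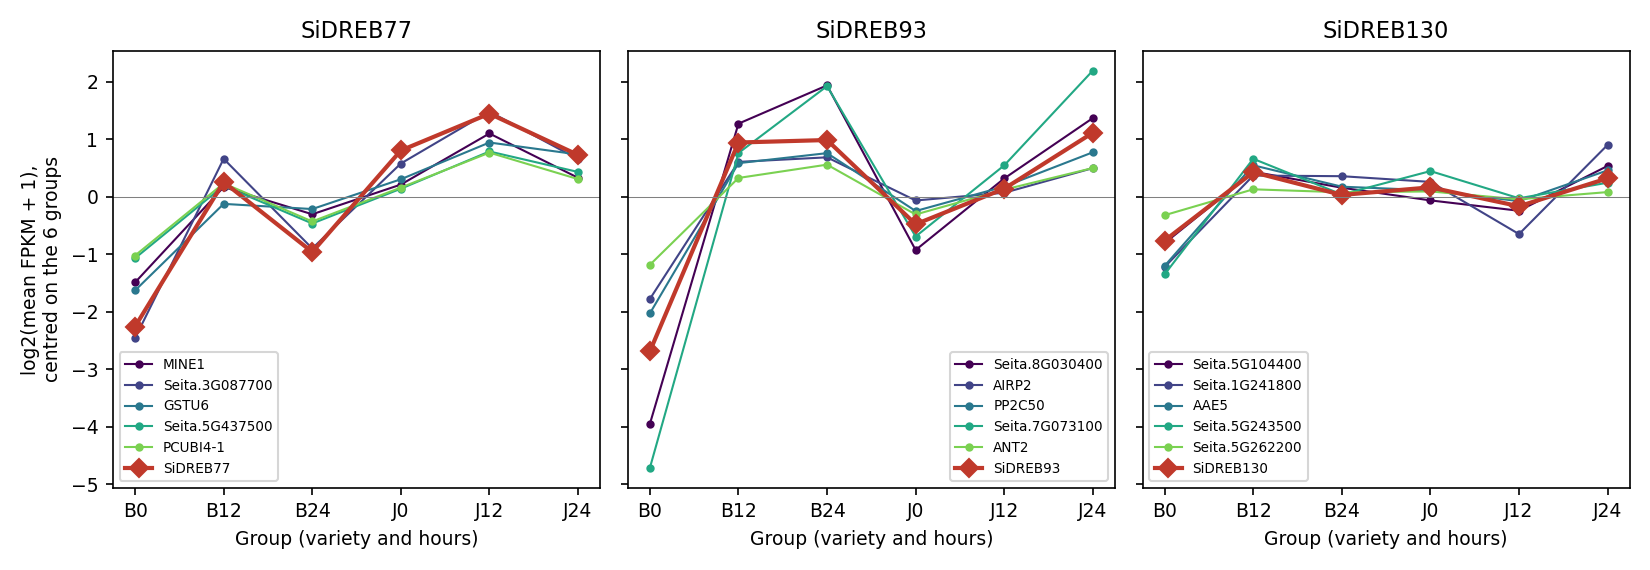
Group means as log2(mean FPKM + 1), centred on the 6 groups (y axis), for SiDREB77, SiDREB93 and SiDREB130 (red) and the 5 tested genes with the highest r to each (other colours), over the 6 groups (x axis). B0 is the lowest point of every line, and SiDREB77 and its partners peak in J12.

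The rest of the family was compared at 24 h too. Of the 99 other tested SiDREBs, 1 was called higher and 2 lower in J24 vs B24, near the 4.55% of all genes called in either direction. SiDREB150 (annotated ERF060) had 1.69 ± 1.38 FPKM in B24 and 11.7 ± 2.57 in J24 (SD, n = 3), a difference of 2.36 (adjusted p = 0.00262 in limma). SiDREB19 and SiDREB124, both annotated ERF034, differed by -2.13 (adjusted p = 0.0285 in limma) and -1.48 (adjusted p = 0.0229 in limma). The count of 3 rested on few libraries. It was 1 without B24 replicate 2, J24 replicate 2 or J24 replicate 3, and 5 without B24 replicate 3.

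At 0 h, 4 other SiDREBs were called higher and 6 lower in J0 vs B0, where 6.78% of all genes were called higher and 6.02% lower. The 4 were SiDREB150 (1.65), SiDREB96 (1.58), SiDREB60 (1.39) and SiDREB154 (1.26), all above the 0.88 of SiDREB130. A higher level in unstressed JK3 was thus not particular to the 3 genes. In the 0 to 12 h variety difference, 13 were called, all with the change in JK3 above that in B175. The 3 genes had the opposite sign, for which they were chosen, and were left out of this count. A change in JK3 above that in B175 can be a smaller fall as well as a larger rise. In B12 vs B0, 18 of the other SiDREBs were called higher and 17 lower, beside 28.0% and 9.81% of all genes. Calls in the variety difference needed an adjusted p under 0.05 alone. Of all genes 5.87% met this, and 3.58% with the change in JK3 below that in B175.

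Genes of the kind that DREB proteins are known to bind were grouped by annotation, and whether the 3 genes act on any of them was not tested. Of 18 tested dehydrin and LEA genes, 8 were called higher and 0 lower in J0 vs B0, with a median difference of 1.15 against 0.03 for all genes, of which 6.78% were called higher and 6.02% lower. Their summed FPKM was 832.8 to 906.2 in B0 and 2422 to 3212 in J0. The list had 23 genes before 5 proteins of other kinds were removed by name after its counts had been seen, and the median was then 0.46 with the same number called. The 3 with the largest difference at 0 h, named after their values were seen, were the dehydrin DHN1 of Seita.8G115400 (6.09, SE 0.453), the LEA gene MGL3 (4.49, SE 0.688) and the dehydrin DHN1 of Seita.5G166300 (3.55, SE 0.824).

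In J24 vs B24 1 of the 18 genes was called higher, LEA5-A (2.03, adjusted p = 0.0126 in limma), and 0 lower, with a median of -0.12. That share is near the 4.55% of all genes called in either direction. Its summed FPKM was 14860, 4258 and 14900 in the B24 replicates and 7719, 8458 and 12810 in the J24 replicates, so that B24 replicate 2 was the lowest of the 6. Over 12 h, 10 rose and 1 fell in B12 vs B0, where 28.0% of all genes rose and 9.81% fell. In J12 vs J0 4 rose and 1 fell, where 31.6% of all genes changed in either direction, and before the removal by name 7 of 23 rose. In the variety difference up to 12 h, 6 were called with the change in JK3 below that in B175 and 2 with it above. The sign does not tell a larger rise from a smaller fall. Of all genes, 5.87% were called in that difference, and 3.58% with JK3 below B175.

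Of 15 small cold- and dehydration-regulated proteins, 3 were called higher in J0 vs B0 and 0 lower, beside 6.78% and 6.02% of all genes. They were ERD15 (1.97, SE 0.400), LTI6B (1.59, SE 0.251) and COR413PM1 (1.12, SE 0.248), also named after their values were seen. In J24 vs B24 limma called 0 of the 15, with 2 at an unadjusted p under 0.05 and 0 called by voom.

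Known regulators of DREB genes and proteins were grouped in the same way. They were 7 CAMTA activators and 2 ICE1-like factors, which act upstream of Arabidopsis DREB1 genes, 7 DRIP and HOS1 ubiquitin ligases, which mark DREB2A or ICE1 for breakdown in Arabidopsis, and 6 RCD1/SRO proteins, which bind DREB2A there. Of these 22 genes, limma called 0 in J24 vs B24 and 0 in J0 vs B0. There were 4 and 8 at an unadjusted p under 0.05 in limma, and voom called 0 and 1. Of all genes, 4.55% were called in either direction in J24 vs B24, and 6.78% higher and 6.02% lower in J0 vs B0. The 0 to 12 h variety difference was called for 2 CAMTA genes and 1 ubiquitin ligase, beside 5.87% of all genes. In all of these the change in JK3 was below that in B175. In B12 vs B0, 3 CAMTA genes were called higher, as were 28.0% of all genes. Growth-regulating factors are a family in which GRF7 is known to repress DREB2A in Arabidopsis. Of 7 tested, 1 was called lower in J0 vs B0 and in J24 vs B24. Of all genes, 6.02% were called lower in J0 vs B0 and 4.55% in either direction in J24 vs B24. The called gene, GRF1, differed by -1.20 (SE 0.361) in J0 vs B0 and -2.43 (SE 0.361) in J24 vs B24. Whether GRF1 acts on the 3 genes was not tested. GRF1 had 6.68 ± 0.746 FPKM in B0 and 2.65 ± 1.75 in J0 (SD, n = 3).

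The circadian clock genes bear on the time points, because leaves at 12 h and leaves at 0 or 24 h lie at opposite phases of the daily cycle. Of 26 clock genes, 14 rose and 7 fell in B12 vs B0, and 11 rose and 6 fell in J12 vs J0. Of all genes, 28.0% rose and 9.81% fell in B12 vs B0, and 31.6% changed in either direction in J12 vs J0. Before proteins of other kinds were removed by name, 16 of 40 rose and 11 fell in B12 vs B0. Between the varieties limma called 0 clock genes in J0 vs B0 and 0 in J24 vs B24. There were 10 and 3 at an unadjusted p under 0.05 in limma, and voom called 2 and 0. Of all genes, 6.78% were called higher and 6.02% lower in J0 vs B0, and 4.55% in either direction in J24 vs B24. Among the leaf markers, 3 of 32 tested were called higher and 15 lower in J0 vs B0, where 6.78% of all genes were called higher and 6.02% lower, beside the higher level of the 3 SiDREBs in J0. In J24 vs B24 1 leaf marker was called, PPDK2 (-1.11, SE 0.155), a form of the C4 enzyme pyruvate phosphate dikinase, beside the higher SiDREB77 in J24.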

How the data were processed

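RNA-seq was made from leaves, and the authors deposited FPKM per gene and library, with 3 biological replicates in each of 6 groups. The submitters' processing notes list fastp, HISAT2, HTSeq, DESeq2 and R 3.2.0 without roles, and a mouse build, mm10, which cannot be the build of these genes. Groups were taken from the sample labels, and replicate numbers from the same labels.

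The deposited FPKM were converted to log2(FPKM + 1). Group means over all 18 libraries were fitted by limma 3.58.1 (R 4.3.3) with a variance trend, and p values were adjusted by Benjamini-Hochberg over the 23824 genes that averaged 0.1 FPKM or more. Tests were two-sided. Whole fragments were recovered from the FPKM steps with a tolerance of 0.02. Both steps were tested on simulated data. Alternatives were another pseudocount, other filters and scalings, a replicate block, the compared groups alone, voom, and fits without each library. Ratios of mean FPKM were added after seeing the data.

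The 3 genes and the gene lists were chosen with earlier results of these data known. Genes were named by rule: the 3 genes, their neighbours, the 5 most alike genes of each, the 5 SiDREBs nearest to the choice, the SiDREBs called in J24 vs B24, and up to 3 called genes of each list in J24 vs B24. Outside this rule, the SiDREBs and the dehydrin, LEA and cold- or dehydration-regulated genes named for J0 vs B0 were picked after their values were seen. Proteins of other kinds were removed from the LEA, ubiquitin ligase, clock, leaf and root lists by name after their counts had been seen. Further lists, of galactinol synthases and a proline enzyme, held 3 genes and 1 gene. In J24 vs B24, limma called 0 of them, with 0 at an unadjusted p under 0.05 and 0 called by voom, and in J0 vs B0 the proline enzyme was called higher.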

Additional observations from a re-analysis of the deposited data

Results flagged for a closer look

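HOX29, the homeobox-leucine zipper gene 3 genes before SiDREB93, changed differently in the varieties between 0 and 24 h. Its level went from 4.64 ± 2.74 to 57.8 ± 15.6 FPKM in B175 and from 19.2 ± 8.51 to 44.6 ± 11.2 FPKM in JK3 (SD, n = 3). The change in JK3 minus that in B175 was -2.23 on the log2 scale (SE 0.459, adjusted p = 0.0167 in limma).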

How the results depend on the processing

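SiDREB77 was called higher in J24 in 14 refits, from 1.60 to 1.83 (adjusted p 0.00182 to 0.0102 in limma). SiDREB130 stayed uncalled (0.18 to 0.50), as did SiDREB93, which ranged from -0.027, without B24 replicate 2 (adjusted p = 0.988), to 0.38. With the compared groups alone 1 other SiDREB and 448 genes were called in J24 vs B24, in place of 3 and 1085, and with voom 1 other SiDREB. Leaving out a library gave 1 to 5 other SiDREBs and 741 to 1654 genes. A pseudocount of 0.1 or voom raised SiDREB93 to 3.63 or 4.08 in J0 vs B0 and to 5.29 or 5.75 in B12 vs B0.

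Equal replicate numbers did not pair the 24 h libraries, whose deviations correlated by -0.18, 0.16 and 0.23. With the replicate block, SiDREB77 differed by 1.70 (adjusted p = 0.00405), and 3 other SiDREBs and 1065 genes were called. Depth limits SiDREB93 in B0, with 2 fragments in 1 library.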
